A study of Homo sapiens with 12 samples.

Results

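RNA-seq libraries of K562 cells were used to ask which genes answered nilotinib differently when hemin was also present. The comparison is a difference of differences: the nilotinib effect with hemin (hemin nilotinib minus hemin DMSO) minus the nilotinib effect without hemin (mock nilotinib minus mock DMSO), on the log2 scale. It used all 12 of the 12 libraries, 3 biological replicates in each of 4 groups, and 20821 genes with enough reads of the 58735 listed. This difference is called the interaction below. A value above 0 means that the nilotinib-to-DMSO ratio was larger with hemin than without it, and a value below 0 that it was smaller.

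K562 cells derive from a chronic myeloid leukemia, express the BCR-ABL1 fusion kinase and can be pushed toward red cell fate. The 4 groups were mock DMSO, mock nilotinib (0.1 μM), hemin DMSO (50 μM hemin for 24 h) and hemin nilotinib (0.1 μM nilotinib and 50 μM hemin for 24 h), and the control cells carried 0.1% DMSO in place of the drug. Drug or DMSO was given 24 h before hemin. The hemin libraries are labelled 24 h and the mock libraries 0 h, so the effect of hemin cannot be told apart from that of a further 24 h in culture, or of a further 24 h in nilotinib. All libraries came from this 1 cell line, and the labels give no separate cultures beyond the replicate number, so p-values measure the spread between these libraries.

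Nilotinib blocks the ABL kinase and with it the STAT5 and RAS-ERK signals that drive these cells. Hemin, the oxidised form of heme, is known to turn on globin genes in K562 cells, to free NRF2 target genes from the repressor BACH1, and to start a heat shock response, in which heat shock factors raise the transcription of protein-folding chaperones. GATA1, TAL1 and KLF1 are the transcription factors at the head of the erythroid program, whose end products include heme enzymes, membrane proteins and hemoglobin.

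The libraries held 33457078 to 50506990 counts. The label was checked against marker genes: the 10 K562 identity genes were all tested, and CDKN2A and CDKN2B, which are deleted in K562, had 0 counts in all 12 libraries. Of 8 lymphoid and 7 non-hematopoietic markers, 5 and 4 stayed under 1 CPM, the library-size-scaled count used for all levels below, in the mean of every group. Of 17 myeloid markers 7 stayed under that level, as did 7 of 15 megakaryocyte markers. The summed level of the myeloid list was 165 to 187 CPM in mock DMSO, 38.7 to 45.2 in mock nilotinib, 112 to 141 in hemin DMSO and 16.2 to 34.8 in hemin nilotinib. The megakaryocyte list summed to 74.2 to 88.7, 243 to 264, 50.3 to 97.4 and 245 to 310 CPM in the same order. The 3 hemin DMSO libraries stood apart on the first principal component, at -138 to -154, where the others lay between -24.7 and 95.6. In these 3 the mitochondrial genome gave 1.45 to 2.88% of counts, against 5.20 to 8.83% in the other 9. The 20 most abundant genes took 16 to 17.4% of counts in them and 9.89 to 13.9% in the others. The part of these differences in the results below was not tested.

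The interaction passed an adjusted p of 0.05 in 6271 of 20821 genes (30.1%), by the quasi-likelihood test of edgeR with Benjamini-Hochberg adjusted p-values. Adjusted p-values below are from that fit unless another tool is named. The interaction was above 0 in 3558 genes (17.1%), called higher below, and below 0 in 2713 (13.0%), called lower. These words give the sign of the interaction, not the strength of the response to nilotinib. The median size of the interaction among them was 1.26 on the log2 scale with a median SE of 0.276, and 1519 genes differed by at least 2. For 5372 of the 6271 genes, the 9 log2 nilotinib-to-DMSO differences between single libraries with hemin did not overlap the 9 without it (85.7%, against 30.6% of all tested genes). The same contrast selected these genes, and the 9 differences reuse the same libraries, so this is no separate support. The split between directions rested on how the libraries were scaled: higher genes made up 56.7% of the calls here, 46.3% with upper-quartile factors and 73.3% with total counts, and those scalings moved the median interaction of all genes, 0.06, by -0.12 and 0.21. Small interactions are therefore read relative to that shift.

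**Figure D1:**
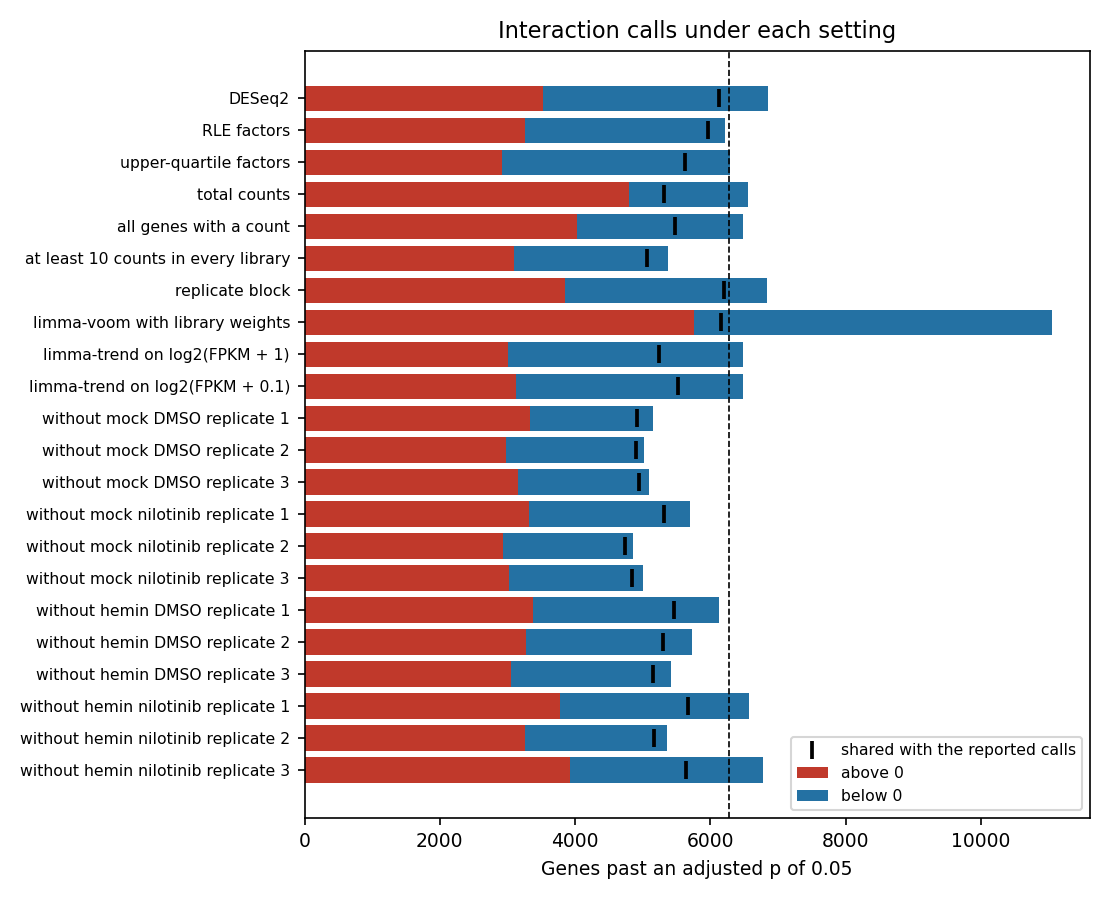
Number of genes past an adjusted p of 0.05 for the interaction (x axis) under each setting (y axis), with genes above 0 in red, genes below 0 in blue, and a black tick at the number shared with the 6271 reported calls (dashed line). Among the 22 settings plotted, counts run from 4862 to 6858 except for limma-voom with a weight per library, which called 11059, and the red share is largest with total counts.

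Most of the called genes were ones that hemin moved in DMSO cells and not detectably in nilotinib cells. Of the 6271, 5515 (87.9%) had a hemin effect that passed in DMSO cells alone, against 49.3% of all tested genes with that property, whatever their interaction. These 5515 were 26.5% of all tested genes. With limma-voom and a weight per library, 5231 of 11059 called genes had a hemin effect that passed in DMSO cells alone. Among the 3558 higher genes the median hemin effect was -1.21 in DMSO cells and 0.04 in nilotinib cells. In the 2713 lower genes these medians were 1.25 and -0.003. These medians describe genes that the same contrast selected. Over all tested genes hemin passed for 53.6% in DMSO cells (25.7% higher, 27.8% lower) and for 5.80% in nilotinib cells. On the second principal component hemin nilotinib replicate 1 (-14.5) lay near the mock nilotinib libraries (-6.86 to -13.6). Replicates 2 and 3 of that group lay further away (-45.2 and -63.9). Without replicate 1, 6569 genes were called, 5228 of them with a hemin effect that passed in DMSO cells alone. A hemin effect that did not pass in nilotinib cells is not shown to be absent.

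**Figure D2:**
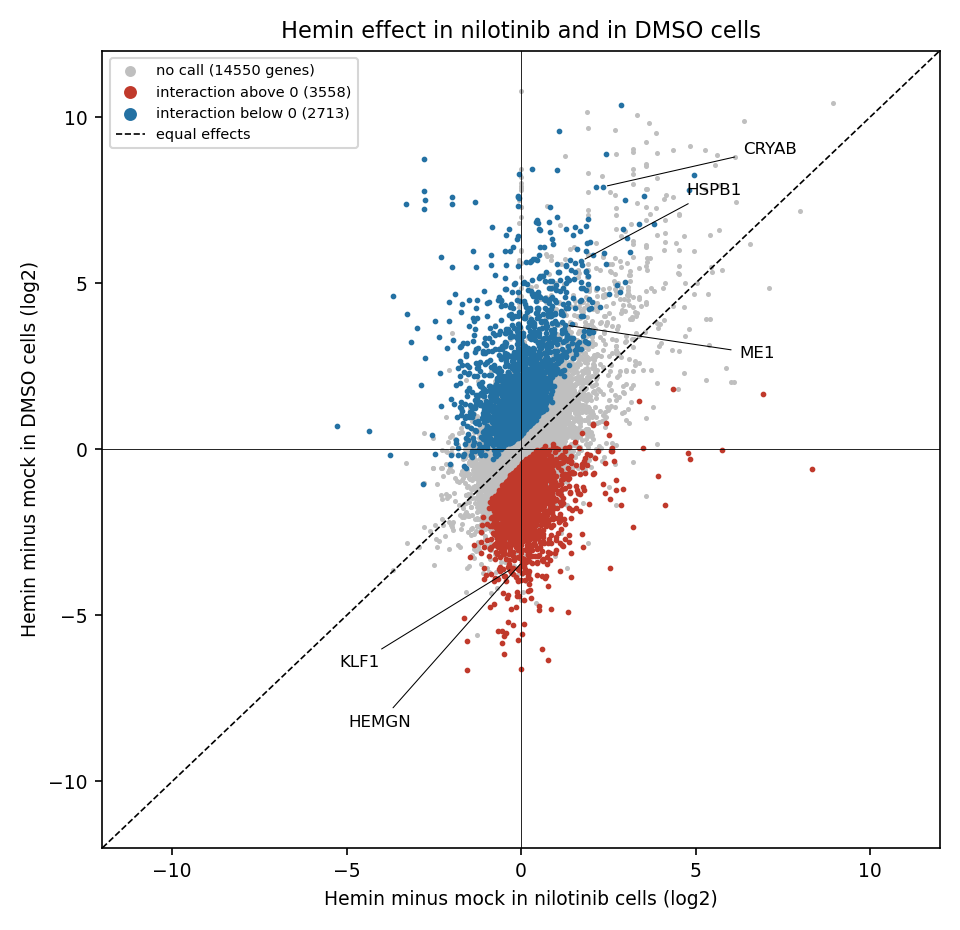
Each point is 1 of 20821 genes, with its hemin effect in nilotinib cells (x axis, log2) and in DMSO cells (y axis, log2); red and blue mark the genes with an interaction above and below 0. The red points spread downward and the blue points upward from the dashed line of equal effects. For 93.2% of the called genes the hemin effect was larger in size in DMSO cells than in nilotinib cells. KLF1 (-3.57 in DMSO against -0.22 in nilotinib cells) stayed near 0 on the x axis, while HSPB1 (5.67 against 1.73) did not.

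Read as responses to nilotinib, the same genes fell into several patterns. Over all tested genes nilotinib passed for 64.2% with hemin (32.4% higher, 31.8% lower) and for 42.5% without it (20.7% higher, 21.8% lower). Of the 3558 higher genes, 1637 had a nilotinib effect that passed with hemin alone and 526 one that passed without hemin alone. A further 878 rose with nilotinib in both conditions, more so with hemin, and 192 fell in both, less so with hemin. Of the 2713 lower genes, 1547 passed with hemin alone and 313 without hemin alone, 541 fell in both, more so with hemin, and 66 rose in both. The direction turned in 455 genes (2.19% of all tested), with both nilotinib effects past the threshold. That count was 278 without mock DMSO replicate 2, 286 without mock nilotinib replicate 2 and 301 without mock nilotinib replicate 3.

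**Figure D3:**
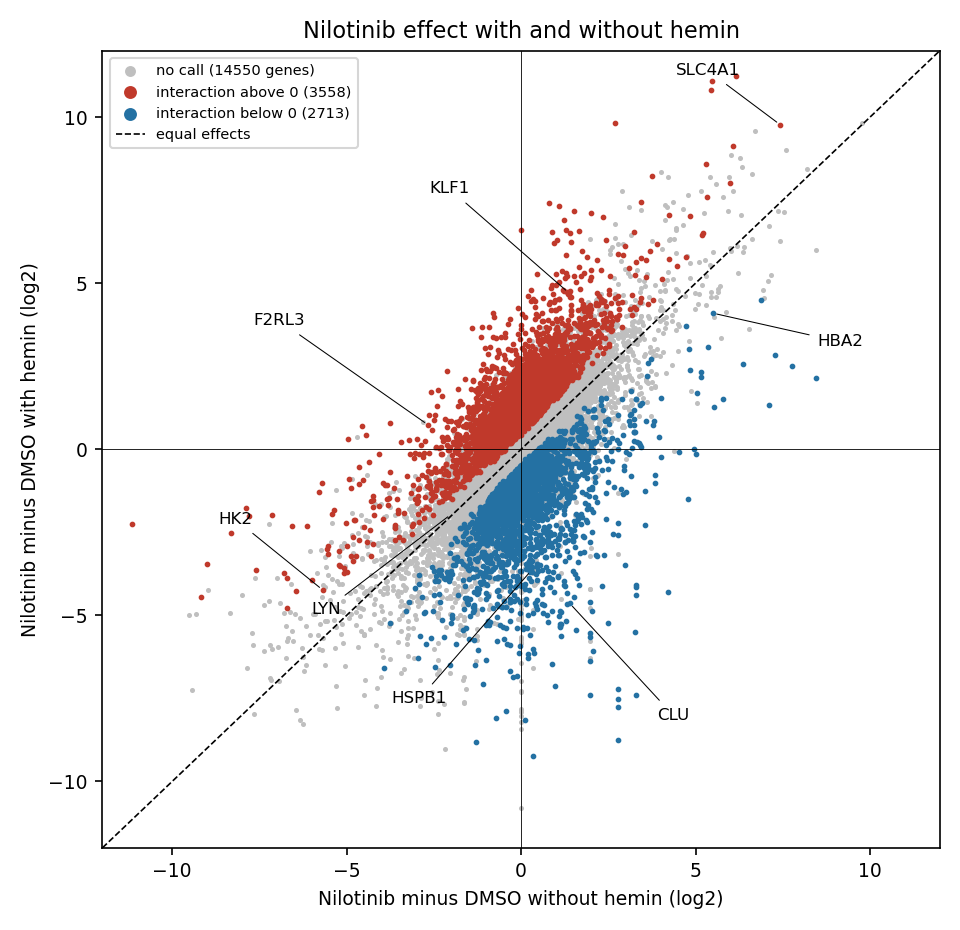
Each point is 1 of 20821 genes, with its nilotinib effect without hemin (x axis, log2) and with hemin (y axis, log2), colored as red (interaction above 0), blue (below 0) or grey (no call). KLF1 lies at 1.37 without and 4.71 with hemin, HSPB1 at 0.29 and -3.65, and LYN on the dashed line of equal effects at -2.01 and -1.96.

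Heat shock genes were the group with the most uniform change. Their median nilotinib effect was -0.13 without hemin and -2.38 with it. Of 23 tested, 22 passed with an interaction below 0 (13.0% of all genes did) and none with one above 0. The median interaction was -1.99, against 0.06 over all genes. The exception was HSF1, at 0.39 (SE 0.20, edgeR adjusted p = 0.154), which encodes the factor itself. Total counts and limma-voom each called 1 member higher. Hemin raised 22 of the 23 in DMSO cells and 20 in nilotinib cells, by a median of 3.34 and 1.32. The summed level of the list was 98800 to 120000 CPM in hemin DMSO, 7730 to 24500 in hemin nilotinib and 3740 to 5950 in the 6 mock libraries.

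HSPB1 (chromosome 7, 76302544 to 76304295, plus strand) encodes the small heat shock protein HSP27. Its levels were 154, 156 and 155 CPM in mock DMSO, 258, 169 and 143 in mock nilotinib, 7394, 10287 and 5986 in hemin DMSO and 368, 659.7 and 860.2 in hemin nilotinib. All 3 hemin DMSO libraries lay far above the others, and the hemin nilotinib libraries lay between them and the mock libraries without overlap. The log2 nilotinib effect was 0.29 without hemin and -3.65 with it, an interaction of -3.94 (SE 0.39, edgeR adjusted p = 8.51e-06).

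CRYAB (chromosome 11, 111908565 to 111923722, minus strand), another small chaperone, had the largest interaction of the list. Mock DMSO libraries held 0.594, 1.10 and 1.44 CPM of CRYAB and mock nilotinib libraries 0.507, 1.08 and 1.96, and with hemin the levels were 203, 277 and 268 in DMSO and 1.41, 6.07 and 10.4 in nilotinib cells. The 3 hemin DMSO libraries stood alone, and 1 hemin nilotinib library lay within the range of the mock libraries. In mock cells the nilotinib effect was 0.17 (log2) and in hemin cells -5.38, which differed by -5.55 (SE 0.74, edgeR adjusted p = 9.43e-05). Of its exon length, 20.6% is shared with a gene on the other strand.

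BAG3, a co-chaperone of HSP70, was at 42.4 ± 3.14 CPM in mock DMSO, 41.0 ± 4.65 CPM in mock nilotinib, 1524 ± 258 CPM in hemin DMSO and, with both agents, 102 ± 51.3 CPM (mean ± SD, n = 3). Without hemin the nilotinib effect was -0.05 and with hemin -3.90 (log2), so the interaction was -3.85 (SE 0.37, edgeR adjusted p = 7.28e-06). HSPH1, of the HSP110 family, had -3.40 (SE 0.57, adjusted p = 0.00057), and DNAJB1, an HSP40 co-chaperone, -3.31 (SE 0.64, adjusted p = 0.00156). The mitochondrial chaperonins HSPD1 and HSPE1 were among the 8 of the list that nilotinib also lowered without hemin, with effects of -1.15 and -0.69. With hemin these were -2.73 and -2.24.

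HSPA1A, an inducible HSP70, was spread widely among the hemin nilotinib libraries. HSPA1A was at 102, 96.9 and 101 CPM in mock DMSO and 147, 83.4 and 76.2 CPM in mock nilotinib, and with hemin at 30098, 32563 and 28816 CPM in DMSO cells and 332, 2384 and 6788 CPM in nilotinib cells. Hemin DMSO libraries lay close together, while the 3 hemin nilotinib libraries spanned more than a 10-fold range and all lay above the mock libraries. This gave nilotinib effects of 0.04 and -3.27 (log2) without and with hemin and an interaction of -3.30 (SE 0.84, edgeR adjusted p = 0.00886). Its neighbor HSPA1B, nearly identical in sequence, followed the same order (-2.99, SE 0.86, adjusted p = 0.0171), and how reads were shared between them is uncertain.

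**Figure D4:**
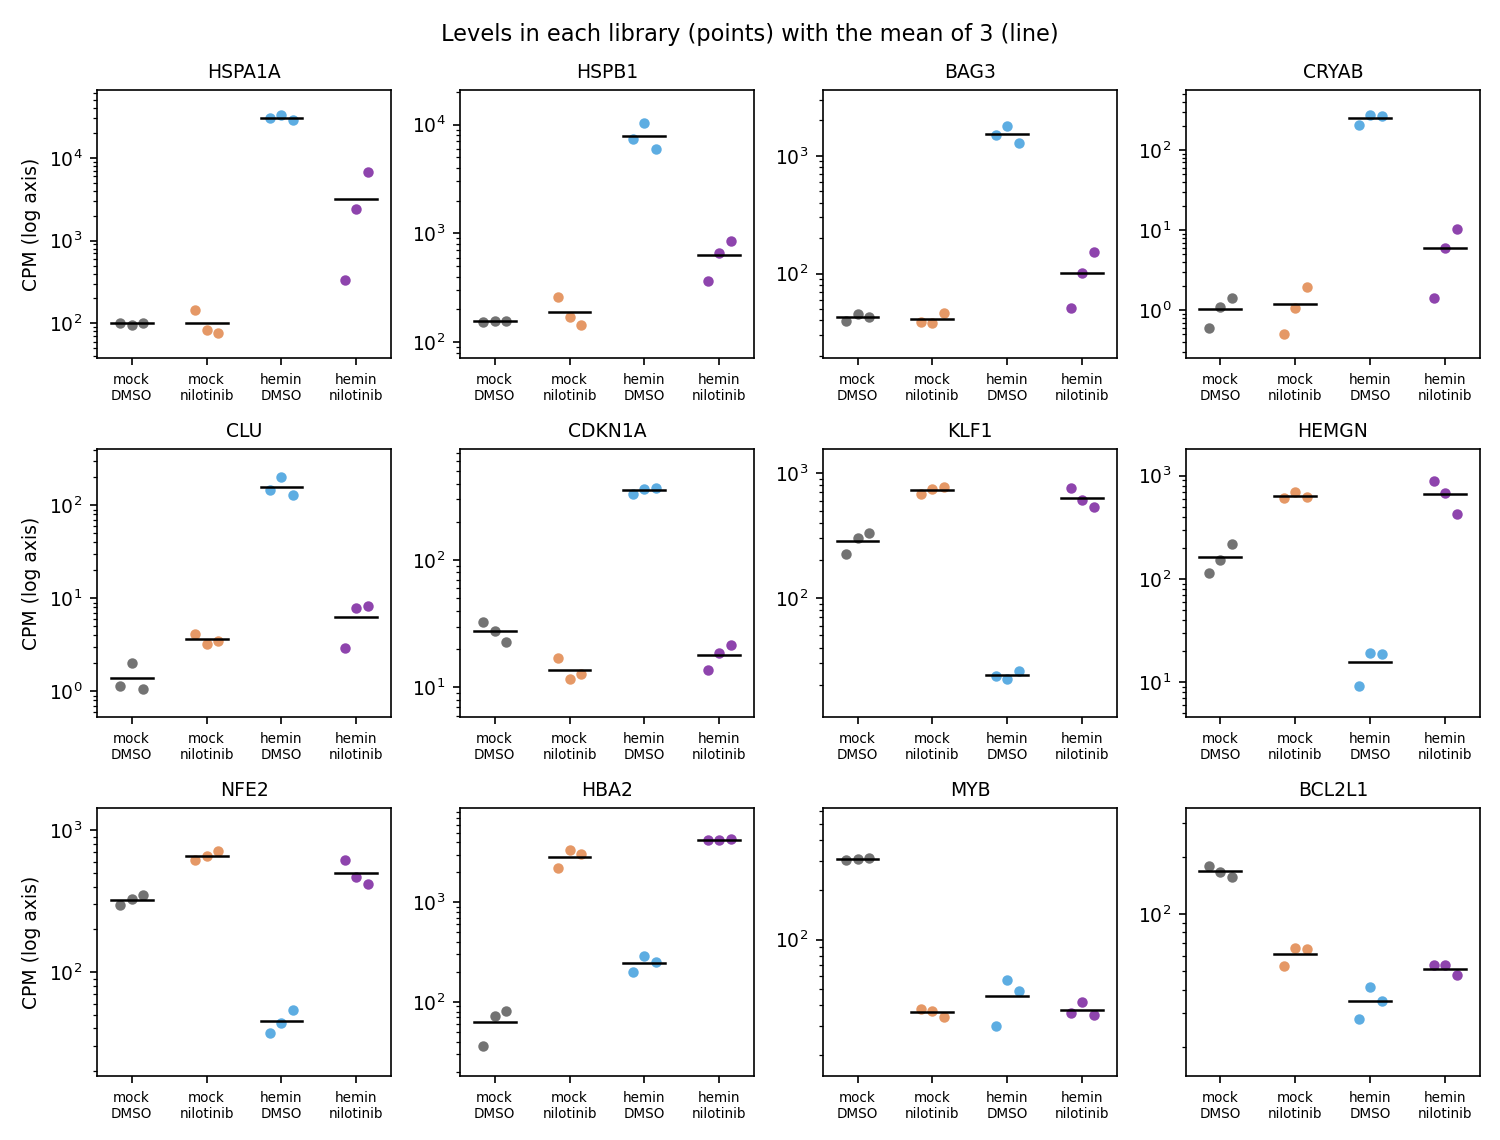
Level of 12 genes in each library (points, CPM on log axes, 3 libraries per group) with the mean of each group (line). The 6 panels of stress genes show hemin DMSO far above the other groups, KLF1, HEMGN and NFE2 show it far below, MYB and BCL2L1 show mock DMSO above the 3 others, and HBA2 is higher with nilotinib in both conditions.

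Promoters of the list were searched for the heat shock element, here GAA, 2 bases of any kind, TTC, 2 bases of any kind and GAA on either strand, in the RefSeq windows of GRCh38.p14 from 250 bases before to 50 after the start of each gene. It was found in 3 of the 20 list promoters in the table (15.0%), in 13 of 1850 promoters of lower genes (0.703%), in 4 of 2162 of higher genes (0.185%), in 45 of 11883 of tested genes (0.379%) and in 133 of all 27305 (0.487%). The 3 are shown because their genes shared the change, with the element in capitals; in CHORDC1 the 3 matches overlap. HSPA8 lies at chr11:123062087-123062386, CHORDC1 at chr11:90223000-90223299, both on the minus strand, and DNAJA1 at chr9:33025023-33025322 on the plus strand.
HSPA8: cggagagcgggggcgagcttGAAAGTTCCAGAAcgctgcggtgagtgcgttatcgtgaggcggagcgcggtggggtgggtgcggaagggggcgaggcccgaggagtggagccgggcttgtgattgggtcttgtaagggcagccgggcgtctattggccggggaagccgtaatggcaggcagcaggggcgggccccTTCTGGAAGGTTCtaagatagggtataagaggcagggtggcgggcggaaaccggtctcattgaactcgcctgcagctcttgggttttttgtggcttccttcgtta
CHORDC1: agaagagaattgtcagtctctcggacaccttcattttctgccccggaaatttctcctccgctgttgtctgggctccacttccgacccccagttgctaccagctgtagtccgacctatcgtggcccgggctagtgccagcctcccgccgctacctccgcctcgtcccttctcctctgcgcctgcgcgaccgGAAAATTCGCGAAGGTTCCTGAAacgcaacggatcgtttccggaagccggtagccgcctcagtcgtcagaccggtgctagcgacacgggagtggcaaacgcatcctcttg
DNAJA1: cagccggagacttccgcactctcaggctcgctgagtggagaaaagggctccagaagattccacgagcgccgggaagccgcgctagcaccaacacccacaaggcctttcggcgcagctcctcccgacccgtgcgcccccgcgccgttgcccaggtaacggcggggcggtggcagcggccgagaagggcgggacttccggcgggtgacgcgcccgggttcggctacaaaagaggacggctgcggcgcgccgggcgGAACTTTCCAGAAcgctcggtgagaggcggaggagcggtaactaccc
HSPA8, the constitutive HSP70, had -1.61 (SE 0.29, adjusted p = 0.00078), CHORDC1, an HSP90 co-chaperone, -1.64 (SE 0.39, adjusted p = 0.00535), and DNAJA1, an HSP40, -1.99 (SE 0.27, adjusted p = 8.17e-05). CRYAB, with the largest change, was not in the table, and HSPB1 and BAG3 had no match in these windows.

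Other stress lists moved less evenly. Of 18 NRF2 and BACH1 targets, 4 passed with an interaction below 0 and 2 with one above 0 (median -0.48). That is 33.3% of the list, against 30.1% of all tested genes. ME1, which makes NADPH, had -2.49 (SE 0.29, adjusted p = 2.56e-05), and TXNRD1, the thioredoxin reductase, -1.39 (SE 0.31, adjusted p = 0.00373). SQSTM1, an autophagy receptor, had -1.32 (SE 0.40, adjusted p = 0.0221), a call lost without mock DMSO replicate 1, mock nilotinib replicate 3 or hemin DMSO replicate 1 (adjusted p = 0.0641, 0.0509 and 0.0603) and under total counts. GCLC, of glutathione synthesis, was the other lower one (-0.93, SE 0.20, adjusted p = 0.00302). SLC48A1, which moves heme out of endosomes, went the other way with 1.24 (SE 0.23, adjusted p = 0.00111), as did BACH1, the heme-binding repressor (0.76, SE 0.22, adjusted p = 0.0176).

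HMOX1, the heme-degrading enzyme, was near 0 in all mock libraries. In CPM, the mock libraries gave 0.0540, 0.119 and 0.135 with DMSO and 0, 0.0583 and 0.0288 with nilotinib, and the hemin libraries 31.7, 71.9 and 41.2 with DMSO and 0.402, 1.89 and 2.20 with nilotinib. The hemin DMSO libraries were the highest and the hemin nilotinib libraries came next, with no overlap. Its mock nilotinib level was at or under 3 counts per library, so the nilotinib effect there is known only as a limit, and the interaction did not pass (adjusted p = 0.237 in edgeR; 0.0443 in DESeq2). NQO1, a quinone reductase and NRF2 target, gave 0.22 (SE 0.31, adjusted p = 0.623), with a 95% interval of -0.43 to 0.88 and 17.7% of its exon length under a gene on the other strand, and its nilotinib effect was -2.24 with hemin and -2.46 without.

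Of 16 endoplasmic reticulum chaperones, 6 were lower and 1 higher (median -0.43). All 16 fell with nilotinib in both conditions. HSPA5 (BiP), the main chaperone of that compartment, fell by 2.34 without hemin and by 3.72 with it (-1.38, SE 0.36, adjusted p = 0.00876). SDF2L1, a partner of BiP, was the higher one (0.48, SE 0.15, adjusted p = 0.0232), a call lost with upper-quartile factors and over all genes with a count. The call for HERPUD1, the largest of the list at -1.57, was lost without any 1 of 10 libraries (adjusted p up to 0.101) and in DESeq2 (0.0789). Of 21 ATF4 response genes, 4 were lower and none higher, with a median of 0.09. That is 19% of the list, against 30.1% of all tested genes. Without hemin nilotinib replicate 1, 8 were higher, and 5 were over all genes with a count. ATF3, a stress-induced transcription factor, had -2.53 (SE 0.50, adjusted p = 0.00168), and PPP1R15A, which reverses eIF2α phosphorylation, -2.05 (SE 0.26, adjusted p = 6.05e-05). SESN2 had -1.34, a call lost without mock DMSO replicate 3 or hemin DMSO replicate 1, or under total counts. Of 20 aminoacyl-tRNA synthetases only FARSA passed (1.16, SE 0.22, adjusted p = 0.00117), although 17 fell with nilotinib without hemin and 15 with it; 2 passed without hemin nilotinib replicate 1.

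Erythroid transcription factors changed in the opposite direction from the chaperones. Of 16 tested, 14 passed with an interaction above 0 (17.1% of all genes did) and none with one below 0, with a median of 1.26. In DESeq2, with RLE or upper-quartile factors, with at least 10 counts in every library, or with a replicate block, 1 member was lower. Without hemin DMSO replicate 2 or hemin nilotinib replicate 2, 1 was lower too, and with limma-voom 2 were. Hemin lowered 13 and raised 1 of the 16 in DMSO cells and moved none past the threshold in nilotinib cells. Since these are bulk samples, fewer cells that express a gene and less RNA per cell cannot be told apart.

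KLF1 (chromosome 19, 12884422 to 12887199, minus strand) activates red cell genes including globins. The 3 libraries of each group gave 223, 301 and 329.6 CPM (mock DMSO), 682, 747 and 769.7 CPM (mock nilotinib), 23.6, 22.2 and 26.2 CPM (hemin DMSO) and 751, 609 and 530.4 CPM (hemin nilotinib). Hemin DMSO was the lowest group, more than 8-fold below mock DMSO, and the mock nilotinib and hemin nilotinib libraries overlapped. The log2 nilotinib effect was 1.37 without hemin and 4.71 with it, an interaction of 3.35 (SE 0.23, edgeR adjusted p = 5.55e-07).

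GFI1B, a repressor needed for red cell and platelet precursors, had the second largest interaction. With DMSO it was at 129, 145 and 149 CPM without hemin and 9.01, 12 and 17.2 CPM with it, and with nilotinib at 374, 479.8 and 509 and 407, 358 and 313 CPM. The order of the groups was that of KLF1. In mock cells the nilotinib effect was 1.69 (log2) and in hemin cells 4.81, which differed by 3.13 (SE 0.27, edgeR adjusted p = 3.15e-06). NFE2, part of a globin enhancer-binding complex, was at 323 ± 25.7 CPM in mock DMSO, 661 ± 45.2 CPM in mock nilotinib, 44.9 ± 8.74 CPM in hemin DMSO and, with both agents, 502 ± 106 CPM (mean ± SD, n = 3). Without hemin the nilotinib effect was 1.03 and with hemin 3.48 (log2), so the interaction was 2.45 (SE 0.24, edgeR adjusted p = 5.66e-06).

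MYB, which keeps progenitors dividing, had an interaction above 0 of another kind. Its levels were 302, 309 and 311 CPM in mock DMSO, 38.2, 36.9 and 33.9 in mock nilotinib, 29.9, 57.2 and 48.9 in hemin DMSO and 36.0, 41.9 and 35.2 in hemin nilotinib. Mock DMSO stood alone and the 3 other groups overlapped. This gave nilotinib effects of -3.08 and -0.27 (log2) without and with hemin and an interaction of 2.81 (SE 0.25, edgeR adjusted p = 3.19e-06). GATA1, the master factor of red cell genes, moved less. Mock DMSO libraries held 268, 296 and 325 CPM of GATA1 and mock nilotinib libraries 355, 373 and 399.8, and with hemin the levels were 130.2, 186 and 158 in DMSO and 330.4, 306 and 315 in nilotinib cells. Levels were lowest in hemin DMSO, with no overlap with the other groups. The log2 nilotinib effect was 0.34 without hemin and 1.0 with it, an interaction of 0.66 (SE 0.20, edgeR adjusted p = 0.0188). TAL1, its partner, had 1.26 (SE 0.23, adjusted p = 0.000905), with 14.8% of its exon length under a gene on the other strand.

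Terminal erythroid genes were more divided: of 17 tested, 7 were higher and 1 lower (median 0.50). HEMGN, a nuclear protein of red cell precursors, led them. HEMGN was at 114, 154 and 216 CPM in mock DMSO and 607, 689.8 and 624 CPM in mock nilotinib, and with hemin at 9.16, 19.1 and 18.7 CPM in DMSO cells and 896, 680.0 and 420.2 CPM in nilotinib cells. All hemin DMSO libraries lay below the others, and both nilotinib groups overlapped. In mock cells the nilotinib effect was 1.99 (log2) and in hemin cells 5.41, which differed by 3.42 (SE 0.40, edgeR adjusted p = 3.08e-05). EPOR, the erythropoietin receptor, had 2.36 (SE 0.26, adjusted p = 1.55e-05), CA1, the red cell carbonic anhydrase, 2.04 (SE 0.51, adjusted p = 0.00742), and TRIM58, a ubiquitin ligase of late erythroblasts, 1.65 (SE 0.32, adjusted p = 0.00153). The CA1 call was lost with log2(FPKM + 1) (adjusted p = 0.0694). UBE2O, a ubiquitin-conjugating enzyme that remodels the proteome of reticulocytes, was the lower one (-1.46, SE 0.18, adjusted p = 4.28e-05).

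Of 8 heme biosynthesis genes, 5 were higher and none lower, with a median of 1.01. All 8 rose with nilotinib in both conditions. CPOX (chromosome 3, 98579446 to 98593723, minus strand), which acts late in the pathway, had the largest interaction. In CPM, the mock libraries gave 137, 141 and 133 with DMSO and 251, 345 and 351 with nilotinib, and the hemin libraries 31.3, 43.6 and 38.3 with DMSO and 323, 341 and 288 with nilotinib. The nilotinib groups overlapped each other, and hemin DMSO lay below mock DMSO. Without hemin the nilotinib effect was 1.2 and with hemin 3.07 (log2), so the interaction was 1.87 (SE 0.21, edgeR adjusted p = 2.17e-05). UROS, which acts in the middle of the pathway, had 1.15 (SE 0.26, adjusted p = 0.00356). FECH, which inserts the iron, gave 0.39 (SE 0.23, adjusted p = 0.214), with an interval of -0.10 to 0.89.

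ALAS2, the rate-limiting red cell enzyme of the pathway, showed that the sign depends on the scale. The 3 libraries of each group gave 80.3, 159.6 and 163 CPM (mock DMSO), 2419.9, 3352 and 3223 CPM (mock nilotinib), 49.9, 58.6 and 43.5 CPM (hemin DMSO) and 2730.0, 2321 and 1912 CPM (hemin nilotinib). The groups with nilotinib were the highest and overlapped, and hemin DMSO was the lowest. This gave nilotinib effects of 4.48 and 5.52 (log2) without and with hemin and an interaction of 1.04 (SE 0.33, edgeR adjusted p = 0.0273). On the CPM scale the means were 134 ± 46.9 CPM in mock DMSO, 2999 ± 505 CPM in mock nilotinib, 50.6 ± 7.6 CPM in hemin DMSO and, with both agents, 2321 ± 409 CPM (mean ± SD, n = 3), and the difference of differences was -594 CPM, below 0. The call was lost without mock DMSO replicate 2 or 3, mock nilotinib replicate 1, or hemin DMSO replicate 1 or 3, with adjusted p of 0.0526 to 0.0743, and in both FPKM fits (adjusted p up to 0.0911). Such opposite signs between the log2 and the CPM scale occurred in 134 of the 6271 called genes (2.14%), 126 of them higher.

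The letters AGATAA, a binding motif of GATA factors, were searched in the same promoter windows on both strands. They were found in 2 of 6 heme biosynthesis promoters (33.3%), 8 of 16 red cell membrane promoters (50.0%) and 2 of 15 erythroid transcription factor promoters (13.3%). Among promoters of higher genes 114 of 2162 had a match (5.27%), of lower genes 117 of 1850 (6.32%), of tested genes 681 of 11883 (5.73%) and of all 27305 promoters 2867 (10.5%). The CPOX window, at chr3:98593562-98593861 on the minus strand, is shown because CPOX had the largest interaction of the pathway; it holds 2 matches, both on the other strand and in capitals.
CPOX: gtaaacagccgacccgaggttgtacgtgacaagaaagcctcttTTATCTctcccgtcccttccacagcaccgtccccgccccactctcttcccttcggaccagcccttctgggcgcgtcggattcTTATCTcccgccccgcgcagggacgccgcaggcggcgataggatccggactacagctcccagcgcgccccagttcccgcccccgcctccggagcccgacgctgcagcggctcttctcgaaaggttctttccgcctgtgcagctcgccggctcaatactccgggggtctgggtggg

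Of 21 red cell membrane genes, 10 were higher and none lower (median 0.56). SLC4A1 (chromosome 17, 44248385 to 44268141, minus strand), the band 3 anion exchanger, is the main membrane protein of the red cell. With DMSO it was at 7.81, 27.4 and 45.8 CPM without hemin and 6.80, 3.83 and 6.29 CPM with it, and with nilotinib at 3677, 4844 and 5396 and 4725, 5211 and 4932 CPM. Nilotinib raised it by over 100-fold in both conditions. The nilotinib groups overlapped, and hemin DMSO was below all mock DMSO libraries. The log2 nilotinib effect was 7.42 without hemin and 9.78 with it, an interaction of 2.35 (SE 0.57, edgeR adjusted p = 0.006). It was not past the threshold with log2(FPKM + 1), which compresses low levels (1.46, adjusted p = 0.0552). ERMAP, a blood group protein, had 1.86 (SE 0.26, adjusted p = 0.00012), and ANK1, the ankyrin that ties band 3 to the skeleton, 1.33 (SE 0.22, adjusted p = 0.000391). SLC14A1, a urea transporter, had the largest value of the list (2.55) at a mean of only 25.6 counts.

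Of 16 iron handling genes, 4 were higher and 1 lower (median 0.37), or 31.2% called against 30.1% of all tested genes. Under total counts 9 were higher and none lower. SLC25A37, the mitochondrial iron importer mitoferrin, had 2.36 (SE 0.31, adjusted p = 6.99e-05), and SLC40A1, the iron exporter ferroportin, 1.85 (SE 0.20, adjusted p = 1.31e-05). STEAP3, a ferrireductase, had 1.62 (SE 0.28, adjusted p = 0.000557), and ABCB10, a partner of mitoferrin, 1.07 (SE 0.27, adjusted p = 0.00747). The lower one was FTH1, the ferritin heavy chain (-0.72, SE 0.26, adjusted p = 0.0432), a call lost under 10 alternatives with adjusted p up to 0.156: total counts, both FPKM fits, and the fits without mock DMSO replicate 1 or 3, mock nilotinib replicate 2 or 3, hemin DMSO replicate 1, or hemin nilotinib replicate 1 or 3. Of its exon length, 62.4% lies under genes on the other strand. TFRC, the transferrin receptor, rested on 1 library. Its levels were 414, 658 and 844 CPM in mock DMSO, 3006, 2809 and 2503 in mock nilotinib, 279, 423 and 364 in hemin DMSO and 2845, 519 and 429 in hemin nilotinib. Hemin nilotinib replicate 1 was near the mock nilotinib libraries, and the other two overlapped mock DMSO. The interaction was -0.29 with all libraries (adjusted p = 0.791) and -1.69 without that library (adjusted p = 0.000507).

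Globin genes had no higher member. Of 11 globins and AHSP, none was higher and 1 lower, with a median of -0.56, and 9 rose with nilotinib in both conditions. Called members made up 9.09% of the list, against 30.1% of all tested genes. The lower count was 2 without hemin DMSO replicate 1 or hemin nilotinib replicate 1, and 3 over all genes with a count. With limma-voom, 1 member was higher and 6 were lower. HBA2 (chromosome 16, 172876 to 173710, plus strand), an alpha globin gene, was the one that passed. Mock DMSO libraries held 36.1, 72.1 and 81.4 CPM of HBA2 and mock nilotinib libraries 2221, 3301 and 3015, and with hemin the levels were 200.0, 289 and 253 in DMSO and 4209.7, 4176 and 4354 in nilotinib cells. Both nilotinib groups lay above both DMSO groups, and hemin raised the level in DMSO cells. In mock cells the nilotinib effect was 5.49 (log2) and in hemin cells 4.10, which differed by -1.39 (SE 0.34, edgeR adjusted p = 0.00673). On the CPM scale the means were 63.2 ± 23.9 CPM in mock DMSO, 2846 ± 559.5 CPM in mock nilotinib, 248 ± 44.9 CPM in hemin DMSO and, with both agents, 4246 ± 94.4 CPM (mean ± SD, n = 3), and the difference of differences was 1216 CPM, so here too the sign turned with the scale. HBA1, nearly identical to HBA2, had -0.91 (adjusted p = 0.192), with 1 hemin nilotinib library at 4133 CPM and the other two at 1465 and 1132; without that library, replicate 1, it was -1.68 and passed the threshold. The fetal globins HBG1 and HBG2 gave -0.67 and -0.56 (adjusted p = 0.235 and 0.121), and 57.3% of the HBG2 exon length is shared with other genes. HBZ, an embryonic globin, gave -0.25 with an interval of -1.23 to 0.73, and AHSP, which chaperones alpha globin, 0.14 with -0.88 to 1.16.

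Among targets of the signals that BCR-ABL1 drives, STAT5 targets were mainly higher: of 12 tested, 6 were higher and 1 lower (median 0.87). Nilotinib lowered 10 of the 12 without hemin and 7 with it. CISH is a feedback inhibitor of STAT5. CISH was at 93.3, 97.1 and 91.7 CPM in mock DMSO and 13.5, 12.2 and 10.4 CPM in mock nilotinib, and with hemin at 22.6, 20.6 and 20.3 CPM in DMSO cells and 11.9, 7.99 and 7.71 CPM in nilotinib cells. Mock DMSO was the highest, hemin DMSO came next, and both nilotinib groups were below them. Without hemin the nilotinib effect was -2.97 and with hemin -1.21 (log2), so the interaction was 1.76 (SE 0.23, edgeR adjusted p = 6.02e-05). PIM2, a survival kinase, had 2.01 (SE 0.20, adjusted p = 7.68e-06), and BCL2L1, which encodes BCL-XL, 2.02 (SE 0.20, adjusted p = 7.92e-06). For BCL2L1 the nilotinib effect turned from -1.45 without hemin to 0.57 with it, and 43.0% of its exon length lies under genes on the other strand. OSM, a cytokine gene, was the lower one (-3.56, SE 0.53, adjusted p = 0.000154), at a mean of only 33.7 counts per library, and nilotinib raised it without hemin (3.94).

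Of 16 ERK targets, 1 was higher and 4 lower (median -0.29), or 31.2% called against 30.1% of all tested genes. None was higher without mock DMSO replicate 1 or 2, mock nilotinib replicate 1 or 2, or hemin DMSO replicate 1, and 7 were lower with log2(FPKM + 1). FOS, an immediate early transcription factor, was at 1.17 ± 0.0415 CPM in mock DMSO, 0.383 ± 0.261 CPM in mock nilotinib, 54.9 ± 19.9 CPM in hemin DMSO and, with both agents, 1.29 ± 0.97 CPM (mean ± SD, n = 3). This gave nilotinib effects of -1.57 and -5.38 (log2) without and with hemin and an interaction of -3.81 (SE 0.70, edgeR adjusted p = 0.00133). DUSP4 and DUSP5, phosphatases that turn ERK signaling off, had -2.03 (SE 0.51, adjusted p = 0.008) and -1.66 (SE 0.36, adjusted p = 0.00327), and IER3 had -1.54 (SE 0.26, adjusted p = 0.000423). Of 12 cell cycle inhibitors, 4 were lower and 2 higher. The higher count was 0 without hemin DMSO replicate 3 and 1 without hemin nilotinib replicate 2, any mock nilotinib library, or mock DMSO replicate 1 or 2. CDKN1A, which encodes p21, rose with hemin in DMSO cells and not detectably in nilotinib cells. In CPM, the mock libraries gave 32.8, 27.6 and 22.8 with DMSO and 17.1, 11.7 and 12.7 with nilotinib, and the hemin libraries 333, 365 and 371 with DMSO and 13.7, 18.5 and 21.5 with nilotinib. Hemin DMSO was more than 10-fold above every library of the other groups. The log2 nilotinib effect was -1.01 without hemin and -4.31 with it, an interaction of -3.31 (SE 0.25, edgeR adjusted p = 1.19e-06). GADD45B, a stress sensor, had -5.24 (SE 0.67, adjusted p = 6.33e-05), and CDKN1C, which encodes p57, -1.28 (SE 0.34, adjusted p = 0.0109).

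Ribosome biogenesis genes were mainly higher. Of 25 ribosome biogenesis genes, 17 were higher and 1 lower (median 0.92), and 24 fell with nilotinib without hemin while 8 did with it. The lower count was 0 when any 1 library was left out, except hemin DMSO replicate 1 and hemin nilotinib replicate 1. RRS1, an assembly factor, had 3.09 (SE 0.54, adjusted p = 0.000698), and POLR1A, the large subunit of RNA polymerase I, 2.44 (SE 0.44, adjusted p = 0.000916). In POLR1A, hemin nilotinib replicate 1 stood at 90.2 CPM and the other two at 39.1 and 33.8. Cytosolic ribosomal proteins had 41 of 79 lower and none higher (median -0.58). RPS29 had the largest of these at -0.98 (SE 0.22, adjusted p = 0.00317). No member was higher under any alternative, but the count of lower ones ran from 13 to 67, with 23 under total counts and 62 under upper-quartile factors. It was 13 without mock DMSO replicate 1, 15 and 19 without mock nilotinib replicates 3 and 2, 20 and 26 without hemin nilotinib replicates 2 and 3, and 21 without mock DMSO replicate 2 or 3.

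Of 33 DNA replication genes, 14 were higher and 1 lower (median 0.58), and of 24 mitosis genes 10 were higher and 1 lower (median 0.49). The higher count of the mitosis list was 17 under total counts, 20 with limma-voom and 15 without hemin nilotinib replicate 3. RRM2, which makes deoxynucleotides, had 1.90 (SE 0.44, adjusted p = 0.00445), and PCNA, the polymerase clamp, 1.46 (SE 0.35, adjusted p = 0.00528). KIF20A, a mitotic kinesin, had 1.84 (SE 0.20, adjusted p = 1.61e-05). For KIF20A the hemin nilotinib libraries were the highest, at 101, 130 and 97.5 CPM against 31.5 to 71.7 CPM elsewhere. UBE2C, a ubiquitin-conjugating enzyme of mitotic exit, was the lower one in the mitosis list, -2.53 (SE 0.57, adjusted p = 0.00371), and CDC6, which loads the replicative helicase, in the replication list, -1.05 (SE 0.24, adjusted p = 0.0043).

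Of 27 genes of cholesterol and fatty acid synthesis, 18 were higher and none lower (median 1.10). Without hemin, nilotinib lowered 17 and raised 1 of them, and with hemin it raised 13 and lowered 3. MVK, mevalonate kinase, turned direction. The 3 libraries of each group gave 37.7, 37.3 and 39.7 CPM (mock DMSO), 11.1, 11.7 and 17.8 CPM (mock nilotinib), 4.50, 7.75 and 6.90 CPM (hemin DMSO) and 21.5, 11.6 and 12.4 CPM (hemin nilotinib). Mock DMSO was the highest and hemin DMSO the lowest, with the nilotinib groups between them. In mock cells the nilotinib effect was -1.50 (log2) and in hemin cells 1.25, which differed by 2.75 (SE 0.35, edgeR adjusted p = 5.37e-05). The letters TCACNCCAC of a sterol element were in 1 of 20 of the list's promoters in 1.09% of those of tested genes and in 1.15% of all promoters.

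The mRNAs of the mitochondrial genome had the highest list median, 2.31, with 12 of 13 higher and none lower (7 higher with log2(FPKM + 1)). Hemin lowered 12 of them in DMSO cells and moved none past the threshold in nilotinib cells. MT-ATP6, a subunit of ATP synthase, had the largest interaction of the list. With DMSO it was at 3432, 4409 and 3889 CPM without hemin and 777, 421 and 837 CPM with it, and with nilotinib at 4492, 3612 and 3088 and 6062, 4408 and 3079 CPM. Hemin DMSO was the lowest group and the 3 other groups overlapped. Without hemin the nilotinib effect was -0.07 and with hemin 2.73 (log2), so the interaction was 2.80 (SE 0.37, edgeR adjusted p = 7.71e-05). Of 57 nuclear genes of the respiratory chain, 13 were lower and 1 higher (median -0.46), or 24.6% called against 30.1% of all tested genes. UQCRFS1, the Rieske protein of complex III, was the higher one, 1.25 (SE 0.21, adjusted p = 0.000442). The lower count was 5 under total counts, 20 in DESeq2 and 28 under upper-quartile factors. It also rested on single libraries: it was 2, 6 and 5 without mock DMSO replicates 1, 2 and 3, 8, 4 and 3 without mock nilotinib replicates 1, 2 and 3, 26 and 6 without hemin DMSO replicates 1 and 2, and 28, 5 and 5 without hemin nilotinib replicates 1, 2 and 3.

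Of 31 proteasome genes, 10 were lower and none higher (median -0.41), or 32.3% called against 30.1% of all tested genes. The lower count was 4 under total counts and 17 under upper-quartile factors. It was 4 without mock DMSO replicate 1 or mock nilotinib replicate 2, 5 without hemin nilotinib replicate 2, and 6 without mock DMSO replicate 2 or mock nilotinib replicate 3. Of 21 glycolysis genes, 3 were higher and none lower, or 14.3% called against 30.1% of all tested genes. Without hemin DMSO replicate 2, 6 were higher. HK2, hexokinase 2, fell with nilotinib in both conditions. Its levels were 64.1, 62.5 and 55.6 CPM in mock DMSO, 1.24, 0.758 and 1.53 in mock nilotinib, 34.9, 38.2 and 40.2 in hemin DMSO and 1.41, 2.75 and 1.85 in hemin nilotinib. The nilotinib libraries all lay below 3 CPM and the hemin DMSO libraries below the mock DMSO ones. This gave nilotinib effects of -5.68 and -4.24 (log2) without and with hemin and an interaction of 1.45 (SE 0.32, edgeR adjusted p = 0.00327). SLC2A1, the GLUT1 glucose transporter, rose in both, by 1.86 without and 3.15 with hemin (1.29, SE 0.23, adjusted p = 0.000709).

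Of 10 metallothionein and zinc genes 5 were tested, 2 higher and 2 lower. Neither higher call held in the FPKM fits. MT2A had 2.12 (SE 0.63, adjusted p = 0.0193), and its hemin nilotinib libraries ranged from 22.9 to 105 CPM against 6.5 to 21.3 elsewhere; without hemin nilotinib replicate 2 the call was lost (1.42, adjusted p = 0.0654). For MT1X, at a mean of 35.7 counts, mock nilotinib was at or under 3 counts per library and the interaction was at least 4.12. MTF1, the factor that controls metallothionein genes, had -1.67 (SE 0.20, adjusted p = 3.39e-05), and the zinc exporter SLC30A1 -1.41 (SE 0.38, adjusted p = 0.0115).

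In the ZAKα, p38 and inflammasome list, 2 of 14 tested genes were higher and 1 lower (median 0.24). That is 21.4% of the list, against 30.1% of all tested genes. NLRP1, an inflammasome sensor, was measured as follows. Mock DMSO libraries held 156, 136 and 140.4 CPM of NLRP1 and mock nilotinib libraries 206, 205 and 261, and with hemin the levels were 284, 168 and 236 in DMSO and 236, 314 and 562.4 in nilotinib cells. The 2 mock groups did not overlap, and hemin nilotinib had the widest range and overlapped hemin DMSO. The nilotinib effect was 0.69 with hemin and 0.64 without, and the interaction was 0.06 (95% interval -0.68 to 0.80, adjusted p = 0.921). Its sign turned with the scaling, to -0.05 with upper-quartile factors. MAP3K20, which encodes ZAK, gave 0.20 with an interval of -0.16 to 0.57. MAPK14, the p38α kinase, had 1.28 (SE 0.18, adjusted p = 9.44e-05), and CARD8, another sensor, 0.77 (SE 0.19, adjusted p = 0.00697). NLRP3, the lower one, had a mean of 9.58 counts with mock DMSO at or under 3 counts per library, and its interaction was -2.90 or lower. Of 17 BCL2 family genes 2 were higher and 2 lower (23.5% called, against 30.1% of all tested genes). Without hemin nilotinib replicate 1, 4 were higher. Only 1 was lower without any 1 of the mock DMSO libraries, mock nilotinib replicate 1 or hemin DMSO replicate 1. BIK, a pro-apoptotic gene, turned direction, from 1.41 to -2.39 (-3.80, SE 0.56, adjusted p = 0.000141), at a mean of 28.2 counts.

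Of 25 interferon and MHC class I genes, 3 were higher and 4 lower (median 0.005), or 28% called against 30.1% of all tested genes. The higher count was 1 in both FPKM fits, and the lower count 2 without mock DMSO replicate 1. HLA-B had -2.79 (SE 0.53, adjusted p = 0.00117). IFIT3, an interferon-induced gene, had 1.48 (SE 0.38, adjusted p = 0.00749) on the log2 scale but a CPM difference of -3.39, and lost the call with FPKM. Some markers of other cell types also passed. Of 8 tested megakaryocyte markers 3 were higher and 2 lower (62.5% called, against 30.1% of all tested genes). The platelet tubulin TUBB1 was higher (2.13, SE 0.42, adjusted p = 0.0015, with 34.0% of its exon length under a gene on the other strand), as were GP1BA (1.78, lost without hemin DMSO replicate 2 or 3, in both FPKM fits and with limma-voom) and GP6 (0.95), and THBS1 was lower (-4.29). Of 12 tested myeloid markers 3 were higher and 2 lower (41.7% called). The higher ones were ITGAM (1.55), CSF3R (1.34) and CD33 (0.89), and only ITGAM passed without mock DMSO replicate 2 or mock nilotinib replicate 3. CSF1R and CD14 were lower, at -3.66 and -2.92, and the CD14 call was lost without mock nilotinib replicate 1. Of 12 reference genes 2 passed, both lower (16.7% called, against 30.1% of all tested genes). TBP was 1 of them, at -0.65. Its call was lost without mock DMSO replicate 1 or 2 or hemin nilotinib replicate 2, under total counts, and over all genes with a count.

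Across all genes, the largest differences were taken among genes with a mean of at least 100 counts that passed without any 1 library. The 10 largest below 0 included CACNA1G, ANKRD26P1, CLU, CRYAB, GADD45B, NAALAD2, PLVAP, RRAD and HBEGF. CACNA1G, a calcium channel gene, was high in hemin DMSO alone. CACNA1G was at 0.180, 0.191 and 0.115 CPM in mock DMSO and 0.101, 0.0583 and 0.0288 CPM in mock nilotinib, and with hemin at 13.8, 19.2 and 18.1 CPM in DMSO cells and 0, 0.0549 and 0.0467 CPM in nilotinib cells. The hemin nilotinib libraries were at or under 3 counts, so the interaction was -6.38 or lower.

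CLU (chromosome 8, 27596917 to 27615031, minus strand), which encodes the extracellular chaperone clusterin, turned direction. In CPM, the mock libraries gave 1.15, 2.0 and 1.06 with DMSO and 4.16, 3.27 and 3.46 with nilotinib, and the hemin libraries 148, 200.1 and 129 with DMSO and 2.93, 7.85 and 8.32 with nilotinib. Hemin DMSO stood far above the rest, mock nilotinib lay above mock DMSO, and hemin nilotinib overlapped mock nilotinib. The log2 nilotinib effect was 1.39 without hemin and -4.64 with it, an interaction of -6.03 (SE 0.44, edgeR adjusted p = 7.76e-07). RRAD, a small GTPase, had -4.81 (SE 0.60, adjusted p = 4.51e-05), and HBEGF, an EGF receptor ligand, -4.39 (SE 0.43, adjusted p = 5.66e-06).

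The 10 largest above 0 were AC072022.2, AL031848.1, AP003555.2, AC104129.1, KLHDC7B, AC116552.1, AP001528.3, EIF5AP2, GDF2 and SH3TC1, of which 3 (KLHDC7B, GDF2 and SH3TC1) are annotated as protein-coding. In 6 of them 1 group was at or under 3 counts per library, so the fitted value is no measure of size. As bounds on the log2 scale the difference was at least 4.16 for AC072022.2, 2.57 for AL031848.1, 2.71 for KLHDC7B, 4.13 for AC116552.1, 3.12 for GDF2 and 0.29 for AP003555.2. AC072022.2, AL031848.1, AC104129.1 and AC116552.1 are annotated as antisense; whether reads were counted by strand is not given in the sources used here, so their reads cannot be told apart from those of partner genes. EIF5AP2, a processed pseudogene, was at 3.60 ± 1.65 CPM in mock DMSO, 48.7 ± 4.23 CPM in mock nilotinib, 0.178 ± 0.0791 CPM in hemin DMSO and, with both agents, 56.1 ± 7.69 CPM (mean ± SD, n = 3). In mock cells the nilotinib effect was 3.76 (log2) and in hemin cells 8.24, which differed by 4.48 (SE 0.52, edgeR adjusted p = 7.92e-06). How reads were divided between it and near-identical copies is uncertain.

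Of the genes whose direction turned, F2RL3, the thrombin receptor PAR4, fell with nilotinib without hemin and rose with it. The 3 libraries of each group gave 18.5, 21.4 and 17.5 CPM (mock DMSO), 3.25, 3.18 and 2.62 CPM (mock nilotinib), 2.18, 1.5 and 2.56 CPM (hemin DMSO) and 4.05, 3.35 and 3.04 CPM (hemin nilotinib). Mock DMSO was the only high group, and hemin nilotinib lay above hemin DMSO without overlap. Without hemin the nilotinib effect was -2.66 and with hemin 0.73 (log2), so the interaction was 3.40 (SE 0.30, edgeR adjusted p = 3.55e-06). WSCD2 had 3.72 (SE 0.30, adjusted p = 2.18e-06), with nilotinib effects of -2.42 without and 1.30 with hemin. MT-TH, a mitochondrial transfer RNA, had 3.84 (SE 0.44, adjusted p = 2.35e-05), AC104129.1 4.90 (SE 0.48, adjusted p = 6.1e-06) and AP001528.3 4.54 (SE 0.44, adjusted p = 3.6e-06). In the other direction SLC4A8, a bicarbonate transporter, had -4.28 (SE 0.47, adjusted p = 1.52e-05). With DMSO it was at 0.432, 0.191 and 0.442 CPM without hemin and 6.10, 10.4 and 10.6 CPM with it, and with nilotinib at 2.13, 3.41 and 3.23 and 2.73, 3.51 and 4.86 CPM. Hemin DMSO was the highest group, mock DMSO the lowest, and both nilotinib groups overlapped between them. PDZK1, a scaffold of membrane transporters, had -3.98 (SE 0.44, adjusted p = 1.79e-05), and PLVAP -4.81 (SE 0.75, adjusted p = 0.000282).

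Some genes responded to nilotinib nearly alike in both conditions. Both nilotinib effects passed with the same sign in 6316 genes, and in 291 of these (4.61%) the 95% interval of the interaction lay within 0.5 of 0 on the log2 scale. LYN, a SRC family kinase that nilotinib lowered, was among those with the largest effects. Its levels were 114, 129 and 142 CPM in mock DMSO, 28.7, 35.1 and 32.1 in mock nilotinib, 122, 136 and 119 in hemin DMSO and 28.5, 34.9 and 33.5 in hemin nilotinib. Both nilotinib groups lay below both DMSO groups, and hemin and mock libraries overlapped. The interaction was 0.05 (95% interval -0.34 to 0.44). LTBP1, which binds latent TGF-β, rose by 1.96 without and 1.81 with hemin, and PSPH, of serine synthesis, had effects of -1.87 and -1.78. RAB11FIP1 had -1.73 and -1.74, and GDF15, a stress cytokine gene, -1.66 and -1.70. The count of 291 moved with single libraries: it was 122, 84 and 111 without mock DMSO replicates 1, 2 and 3, 167, 78 and 110 without mock nilotinib replicates 1, 2 and 3, 176 without hemin DMSO replicate 3 and 126 without hemin nilotinib replicate 2.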

How the data were processed

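RNA-seq of K562 cells gave 12 libraries, 3 biological replicates in each of 4 groups (mock or hemin, DMSO or nilotinib), sequenced as 150-base paired reads. The authors deposited a table of raw counts per gene, and a table of FPKM values that they had normalized; here the FPKM were found to equal count over length over a DESeq2 size factor. The authors' processing notes name GRCh38.p12 and DESeq2; the aligner, counter and strand setting are not given in the sources used here. A table of group means of FPKM was not used. Gene positions matched GENCODE 29 for all 20821 genes tested.

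Genes were kept by filterByExpr (at least 10 counts per library in the smallest group, 15 in all). Counts were scaled by TMM and tested with edgeR 4.0.16 (quasi-likelihood, 1 mean per group, all 12 libraries, two-sided) for the contrast (hemin nilotinib minus hemin DMSO) minus (mock nilotinib minus mock DMSO), with Benjamini-Hochberg adjustment over all genes tested and a threshold of 0.05. SE and 95% intervals came from the fitted Wald variance. Per library, 3 counts (0.054 to 0.0957 CPM) were taken as the floor, which covers counting error only. Where every library of 1 group was at or under that floor, a bound is given.

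Members and gene lists were chosen with earlier results of these data known. Named genes were the 10 largest in each direction among called genes with a mean of at least 100 counts that passed without any 1 library, the 5 largest in each direction with opposite nilotinib effects, the 5 with the largest mean effect among closely alike genes, and in each list up to 4 called genes plus genes chosen for their known role. Some genes that meet this rule are not reported here. Other genes named as the exception in a list were chosen after their values were seen. Alternatives were DESeq2 1.42.0, limma 3.58.1 (voom with a weight per library, or its trend test on FPKM after adding 1 or 0.1 and taking log2), other scalings and filters, a replicate block and leaving out each library. Tested on simulated interactions over 19994 genes, edgeR recovered 23% of 100 genes changed by 1 and 74.5% of 98 changed by 2 on the log2 scale, with 4 false calls. R 4.3.3 and Python 3.11.15 were used.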

Additional observations from a re-analysis of the deposited data

Results flagged for a closer look

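The test of the difference itself passed in 6271 genes, 3558 with an interaction above 0 and 2713 with one below 0. In 455 of them the nilotinib effects with and without hemin had opposite signs, both past the threshold. The largest of these were taken among genes with a mean of at least 100 counts that passed without any 1 library. In that subset the largest log2 differences above 0 were 4.90 for AC104129.1, 4.54 for AP001528.3, 3.84 for MT-TH, 3.72 for WSCD2 and 3.40 for F2RL3. The largest below 0 were -6.05 for ANKRD26P1, -6.03 for CLU, -4.81 for PLVAP, -4.28 for SLC4A8 and -3.98 for PDZK1. Passing in each of the 12 fits that left out 1 library was a condition of this choice, so it is no separate support. No group had the 4 libraries that a check for single outlying libraries needs.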

How the results depend on the processing

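Of 3821 values of 175 named genes under the alternatives, 3650 kept their direction and side of the threshold, 107 lost the call, 33 gained it, 22 changed sign and 9, of genes with closely alike effects, moved by more than the spread between replicates. The count of 6271 was 4073 when a log2 difference of at least 1 was required (1699 lower), and the lower count was 1752 with total counts. With limma-voom and library weights the count of calls was 11059 (5760 higher, 5299 lower), with 1617 opposite and 1468 closely alike genes. Of these calls, 5231 had a hemin effect that passed in DMSO cells alone. The alike count was 1563 with log2(FPKM + 1). The cause was not tested. The median over all genes was 0.00866 with DESeq2, 0.00892 with RLE factors, -0.0574 with upper-quartile factors, 0.272 with total counts, -0.0277 over all genes with a count, -0.00396 with log2(FPKM + 1) and 0.00526 with log2(FPKM + 0.1). Leaving out 1 library gave 4862 to 6775 calls, 2934 to 3929 higher, 1826 to 2846 lower, 278 to 598 opposite, 4521 to 6099 with hemin passing in DMSO cells alone, 78 to 402 alike, and a median of 0.043 to 0.110.

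AP003555.2, IFIT3 and NQO1 became -0.15, -0.046 and -0.31 with log2(FPKM + 1). NLRP1 was -0.000209 with DESeq2, -9.29e-05 with RLE factors, -0.046 with upper-quartile factors, -0.16 with limma-voom, and -0.026 and -0.042 with FPKM plus 1 and 0.1. AHSP was -0.0029 with upper-quartile factors, -0.12 with limma-voom and -0.010 with log2(FPKM + 0.1). Leaving out 1 library moved NLRP1 from -0.33 to 0.31, AHSP from -0.35 to 0.58, HBZ from -0.66 to 0.14 and TFRC from -1.69 to 0.17. None of these 4 passed with all libraries. The metallothionein median was -1.42 with at least 10 counts in every library, and the BCL2 family median 0.11 with total counts, 0.044 with at least 10 counts, and -0.25 to 0.0033 without 1 library.

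With the replicate number as a block (replicate block), 6845 genes passed, 6201 of them among the 6271. Same-numbered libraries correlated above 0.1 in all 3 pairs between the nilotinib groups with and without hemin (0.199 to 0.263) and not in the other 5 combinations of groups. The labels do not say what a shared number stands for. In simulated data, differences of 1 on the log2 scale were recovered in 23% of genes and differences of 2 in 74.5%. Smaller ones were not simulated. Far fewer genes were given an interaction there than passed here, so these rates may not hold for the data.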

Other observations

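The share of genes with an interaction differed by annotated class, given here as values. Of 14208 protein-coding genes, 18% were higher and 16.3% lower. Of 1752 antisense RNAs, 14.4% were higher and 3.82% lower, of 1564 lincRNAs 14.8% and 5.75%, of 2069 pseudogenes 14.4% and 8.51%, and of 258 sense intronic RNAs 20.9% and 3.49%. Classes differ in level, and whether reads were counted by strand is not given in the sources used here; the part of either in these shares was not tested.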
